A study of Arabidopsis thaliana with 20 samples.

Results

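The subject here is the shoot by root genotype interaction in roots of grafted Arabidopsis: how far the effect of a brassinosteroid-deficient root depended on the genotype of the shoot above it. It is (cpd/cpd minus cpd/WT) minus (WT/cpd minus WT/WT) on the log2 scale, with each graft named shoot first. A positive value therefore means a higher level in matched grafts, where shoot and root share a genotype (cpd/cpd and WT/WT, 10 libraries), than in mismatched grafts (cpd/WT and WT/cpd, 10 libraries). The comparison uses all 20 libraries of the series, and 20862 of its 32833 gene codes passed the filter on low counts and were tested.

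Each group held 5 libraries of whole roots, and each library pooled 3 roots. In cpd/cpd both shoot and root carried cpd, a mutation in the brassinosteroid synthesis gene CPD. Grafts named cpd/WT had a cpd shoot on a Col-0 wild-type (WT) root, grafts named WT/cpd had a WT shoot on a cpd root, and WT/WT was Col-0 in both parts. The labels give no cpd allele, age or growth condition, and nothing in them places the replicates on separate plates or days. A p-value here therefore sets a difference against the variation among such pools, which may be partly technical. Of the 4 groups, only cpd/cpd is titled without the word Grafted. If cpd/cpd was handled differently, that cannot be told apart from an interaction, because cpd/cpd is one of the 4 terms of it.

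Brassinosteroids are steroid hormones that promote cell elongation and division in roots. They are made through a chain of cytochrome P450 enzymes that includes CPD and DWF4, and they are perceived at the cell surface by the receptor kinase BRI1, whose signal releases the transcription factors BZR1 and BES1 from the kinase BIN2. Grafting sets the genotype of shoot and root apart, so that a gene that follows only the root, only the shoot or both additively has an interaction of 0. Plants also carry a layer of rapidly induced genes, among them ERF, CBF, ZAT and WRKY transcription factors, calmodulin-like proteins and jasmonate pathway genes, which respond quickly to touch, wounding, cold and microbial molecules. The gene lists used below were drawn up with earlier results of these data known, so their direction is no independent evidence.

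Total counts per library lay between 13417029, in WT/cpd replicate 1, and 32337043, in cpd/cpd replicate 1. CPD followed the root genotype, with 2.84 ± 0.63 CPM (read counts of a gene scaled to the size of its library) in cpd/cpd against 40.9 ± 4.54 in cpd/WT, and 4 ± 0.751 in WT/cpd against 45.5 ± 4.93 in WT/WT (SD, n = 5 each). All 12 root tissue markers, among them PYK10, SCR and CASP1, were detected in every library, and of 14 leaf identity genes FIL and MUTE were at 0 in every library and 6 others were detected in every one, at 23.6 to 42.5 CPM for FDH, 22.3 to 29.9 CPM for AS1 and 14.1 to 28.9 CPM for KAN1. The library least like the rest of each group was cpd/cpd replicate 4, cpd/WT replicate 2, WT/cpd replicate 2 and WT/WT replicate 4. These are the 4 least typical libraries below, picked within each group. WT/cpd replicate 1 is not among them, although its mean correlation with its own group was 0.9684. That of cpd/cpd replicate 4 was 0.974, of cpd/WT replicate 2 0.9788 and of WT/WT replicate 4 0.9736. WT/cpd replicates 1 and 2 stood at opposite ends for many of the genes below.

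Of the 20862 genes tested, 1613 were called for the interaction (7.73%) at an adjusted p under 0.05 in edgeR's quasi-likelihood test. Lower in matched grafts were 1133 genes (5.43%), and 480 were higher (2.3%). The difference in size was larger than that in number: 662 genes were called lower by at least 1 on the log2 scale and 29 were called higher by as much. The median interaction was -1.19 among the genes called lower, 0.50 among those called higher and 0.03 over all genes tested. Leaving out the 4 least typical libraries gave 2968 calls, 1348 of them higher, so the excess of lower calls was much smaller there. With sample weights, limma gave 2091 higher and 2038 lower, with no such excess. An unadjusted p under 0.05 was held by 4972 of the 20862 genes, and 2370 were called by DESeq2 and 4129 by limma with sample weights. Counts of list members by these rules, given below, stand against those totals.

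The group means showed which grafts carried the difference. For 1035 of the 1133 genes called lower (91.4%), both mismatched groups had higher means than both matched groups, an order that 16% of all tested genes had. For 448 of the 480 called higher (93.3%), both matched groups lay above both mismatched groups, against 21.8% of all tested genes. The sign of the interaction favours these orders, so the shares describe the called genes and test nothing. Among the genes called lower, the highest mean was in WT/cpd for 679 (59.9%) and in cpd/WT for 451 (39.8%), and the lowest mean was in WT/WT for 728 (64.3%) and in cpd/cpd for 404 (35.7%). Complete separation of libraries was rare: the 10 matched and 10 mismatched libraries did not overlap for 9 of the 1133 genes called lower and for 5 of the 480 called higher, against 14 of all 20862 genes tested (0.0671%). Without WT/cpd replicate 2, those counts were 41, 12 and 55.

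**Figure D1:**
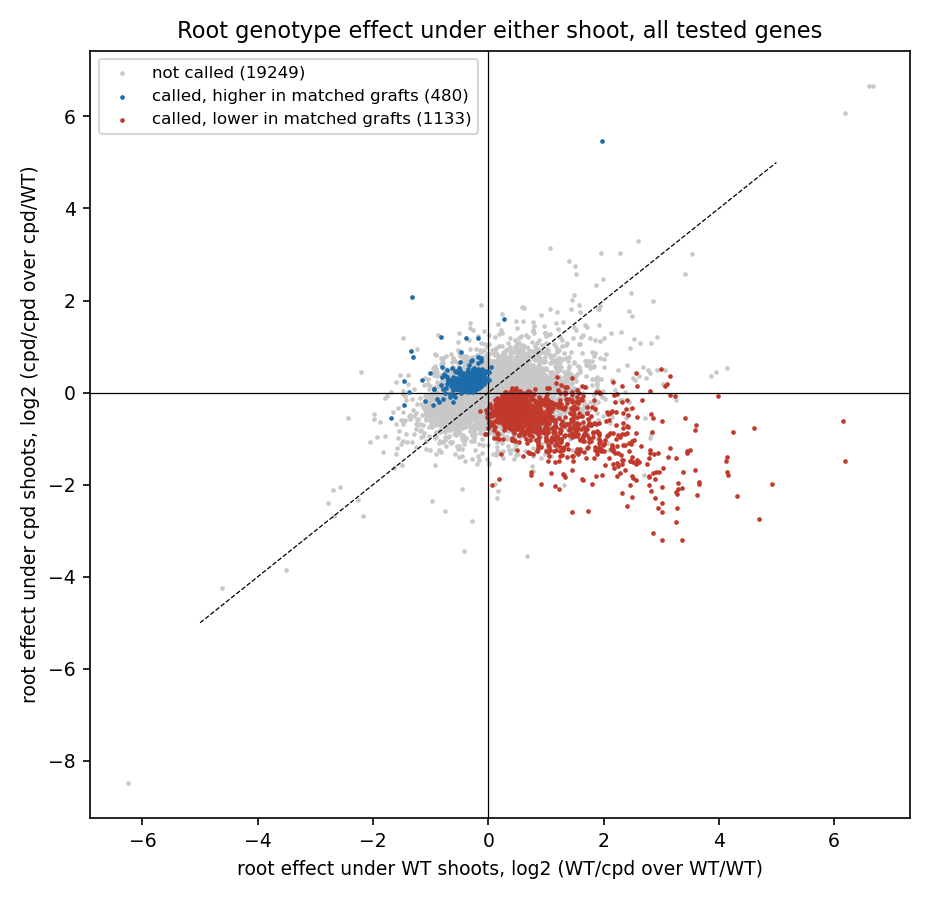
Root genotype effect of each tested gene under WT shoots (horizontal axis, log2 of WT/cpd over WT/WT) and under cpd shoots (vertical axis, log2 of cpd/cpd over cpd/WT), with the dashed line marking equal effects. The 1133 genes called lower in matched grafts lie mostly to the lower right, where cpd roots had the higher mean under WT shoots and the lower mean under cpd shoots, and the 480 called higher lie mostly to the upper left.

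Promoters of 7 of these genes are shown because genes called lower held short sequences bound by known stress regulators more often than tested genes did. Each line below gives the 250 bases before the annotated start of a gene, 5′ to 3′, read from the RefSeq TAIR10.1 genome. Capitals mark TTGAC, the core of the W-box bound by WRKY factors, and CGCGT, the core bound by CAMTA calmodulin-binding factors, each on either strand. The first 5 genes were called lower and hold at least 1 such match. MYB15 was called lower with no match in this window, and XTH9 was called higher with none. These 7 were picked after their values and matches were seen.
ZAT7: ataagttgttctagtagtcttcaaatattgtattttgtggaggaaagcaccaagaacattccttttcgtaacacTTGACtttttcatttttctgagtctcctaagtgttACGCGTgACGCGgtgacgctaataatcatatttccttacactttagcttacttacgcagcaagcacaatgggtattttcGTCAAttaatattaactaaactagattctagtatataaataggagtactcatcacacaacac
CBF2: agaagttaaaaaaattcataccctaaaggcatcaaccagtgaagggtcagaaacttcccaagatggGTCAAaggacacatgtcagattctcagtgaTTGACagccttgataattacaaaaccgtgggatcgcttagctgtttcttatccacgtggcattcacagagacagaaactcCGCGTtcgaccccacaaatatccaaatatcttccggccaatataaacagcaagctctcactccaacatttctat
NUDT4: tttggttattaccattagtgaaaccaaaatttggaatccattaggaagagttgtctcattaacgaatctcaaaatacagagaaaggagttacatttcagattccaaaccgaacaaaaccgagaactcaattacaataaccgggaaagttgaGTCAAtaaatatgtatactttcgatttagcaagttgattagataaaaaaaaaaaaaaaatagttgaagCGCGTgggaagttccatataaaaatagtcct
TCH2: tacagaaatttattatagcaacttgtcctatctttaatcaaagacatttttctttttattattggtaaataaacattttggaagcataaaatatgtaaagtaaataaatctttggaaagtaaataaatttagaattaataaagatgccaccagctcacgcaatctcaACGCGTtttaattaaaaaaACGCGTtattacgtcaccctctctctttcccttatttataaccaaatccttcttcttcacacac
WRKY33: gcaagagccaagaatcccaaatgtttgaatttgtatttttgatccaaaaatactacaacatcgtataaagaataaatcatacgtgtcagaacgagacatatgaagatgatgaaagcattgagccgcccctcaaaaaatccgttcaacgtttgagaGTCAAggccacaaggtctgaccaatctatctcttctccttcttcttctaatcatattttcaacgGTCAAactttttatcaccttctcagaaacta
MYB15: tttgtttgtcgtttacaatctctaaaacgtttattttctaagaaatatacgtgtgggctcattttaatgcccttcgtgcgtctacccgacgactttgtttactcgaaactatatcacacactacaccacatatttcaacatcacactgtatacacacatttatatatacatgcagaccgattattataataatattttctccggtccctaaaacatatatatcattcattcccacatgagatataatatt
XTH9: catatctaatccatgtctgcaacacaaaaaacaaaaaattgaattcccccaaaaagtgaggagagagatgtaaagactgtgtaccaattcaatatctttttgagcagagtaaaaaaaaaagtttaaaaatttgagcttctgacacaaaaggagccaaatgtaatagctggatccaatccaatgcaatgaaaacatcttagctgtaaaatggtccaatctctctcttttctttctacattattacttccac

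The windows are chr3:16926884-16927133, minus strand for ZAT7, chr4:13016236-13016485, minus strand for CBF2 and chr1:6299419-6299668, plus strand for NUDT4. They are chr5:14999620-14999869, minus strand for TCH2, chr2:16107985-16108234, plus strand for WRKY33, chr3:8308959-8309208, plus strand for MYB15 and chr4:1415367-1415616, plus strand for XTH9. By count, the ZAT7 window held 2 matches of TTGAC and 3 of CGCGT and the TCH2 window 4 of CGCGT and none of TTGAC. A stretch ACGCGT reads as CGCGT on both strands and counts as a match on each, and the last base of TTGAC can be the first of CGCGT.

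Over all 1133 genes called lower, 54.1% had TTGAC in this window (95% Wilson interval 51.2% to 57%), against 40.9% of the 479 called higher whose promoter could be read (36.6% to 45.4%) and 45.4% of all 20786 tested genes with a promoter. For CGCGT the shares were 13.5% of genes called lower (11.6% to 15.6%) and 6.26% of those called higher, against 7.46% of all. The G-box CACGTG was present in 10.1% of genes called lower and 6.26% of those called higher, against 7.2% of all. CGTGTG, a form of the brassinosteroid response element bound by BZR1, was present in 7.86% of genes called lower and 3.34% of those called higher, against 5.57% of all. GCCGCC, the GCC-box of ERF factors, was at 2.21% and 2.51%, against 1.97% of all, and AAATATCT, the evening element of the clock, at 5.03% and 6.89%, against 4.83% of all. The intervals cover counting only, and promoters of neighbouring or duplicated genes are not independent. A match is a string of letters, not a bound site.

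All 23 listed ERF, CBF, ZAT and related regulators were lower in matched grafts (100%, against 5.43% of all genes tested), with a median interaction of -3.58 against 0.03 over all genes. Their median root effect was -1.24 on the log2 scale under cpd shoots and 2.47 under WT shoots. Single members ran from -6.89 to -1.70. Between 22 and 23 of the 23 were called in each fit that left out 1 library, and 20 were called by limma with sample weights. Because the list was drawn up with these results known, its count is a description.

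MYB15 (AT3G23250), a MYB factor of cold and defence responses, had 24, 37.7, 23.2, 5.68 and 6.36 CPM in cpd/cpd and 21.4, 30.5, 64.3, 41.7 and 84.7 CPM in cpd/WT, and 114, 2.61, 59.6, 70.2 and 35 CPM in WT/cpd against 1.7, 6.29, 4.39, 3.24 and 10.6 CPM in WT/WT. All 5 WT/WT libraries lay below all 5 cpd/WT libraries and below every WT/cpd library except replicate 2, while cpd/cpd overlapped each of the other groups. The root effect on MYB15 was 0.401-fold under cpd shoots and 10.9-fold under WT shoots, and the interaction was -4.77 ± 0.99 (SE, adjusted p = 0.0079). Leaving out 1 library gave values from -5.18 (without WT/WT replicate 5) to -4.37 (without WT/cpd replicate 1). Without WT/cpd replicate 2 the interaction was -5.10.

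ZAT10 (AT1G27730, STZ in the reference), a zinc-finger repressor induced by many stresses, had 52.3, 123, 69.3, 21.9 and 26.3 CPM in cpd/cpd and 75.5, 94.3, 155, 211 and 294 CPM in cpd/WT, and 390, 29.8, 275, 296 and 148 CPM in WT/cpd against 11, 72.5, 21.8, 12.1 and 68.7 CPM in WT/WT. The low libraries were WT/cpd replicate 2, cpd/cpd replicates 4 and 5, and WT/WT replicates 1, 3 and 4, and matched and mismatched libraries overlapped. Its interaction was -4.12 ± 0.93 (adjusted p = 0.012), made of a 0.353-fold root effect under cpd shoots and a 6.13-fold effect under WT shoots.

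CBF2 (AT4G25470), an AP2 factor of the cold response named after its values were seen, had 5.59, 8.63, 5.24, 1.13 and 1.08 CPM in cpd/cpd and 8.92, 13.3, 21.7, 16.8 and 25.3 CPM in cpd/WT, and 46.6, 1.29, 29.9, 30.5 and 7.13 CPM in WT/cpd against 0.255, 3.33, 0.517, 0.488 and 4.94 CPM in WT/WT. In WT/WT 3 of 5 libraries were under 1 CPM, and cpd/WT ranged above every matched library. The interaction was -5.63 ± 1.13 (adjusted p = 0.0071). It was -6.29 without WT/WT replicate 5, the highest of its group, and -5.24 without WT/cpd replicate 1. CBF1 and CBF3 lie beside CBF2 as near-identical copies, so counts could be shared among the 3 genes. RRTF1 (AT4G34410), a redox-responsive ERF also named after its values were seen, had the most negative value of the list, -6.89 ± 1.66 (adjusted p = 0.017), and -7.96 without WT/WT replicate 5. RRTF1 was at -6.07 without WT/cpd replicate 1 and at -4.91 under the alternative that gave the weakest value. The call of RRTF1 was lost under 2 of the 30 alternatives (highest adjusted p 0.23). Genes on the other strand overlap RRTF1, and with the strand setting of the counting not given their reads cannot be told apart.

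CZF1 (AT2G40140), a CCCH zinc-finger protein, showed a smaller and tighter difference. It had 164, 217, 161, 130 and 114 CPM in cpd/cpd and 222, 236, 267, 270 and 420 CPM in cpd/WT, and 486, 180, 325, 345 and 239 CPM in WT/cpd against 122, 140, 135, 116 and 190 CPM in WT/WT. Its interaction was -2.01 ± 0.33 (adjusted p = 0.0039), with WT/cpd replicate 2 again the lowest of its group and inside the range of the matched libraries. ZAT11 (-2.76 ± 0.46, adjusted p = 0.0039), ERF4 (-2.03 ± 0.37, adjusted p = 0.0049) and ZAT7 (-5.84 ± 1.05, adjusted p = 0.0046) were lower too. ZAT7 was a low gene, with a group mean of at most 0.998 CPM, in WT/cpd.

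**Figure D2:**
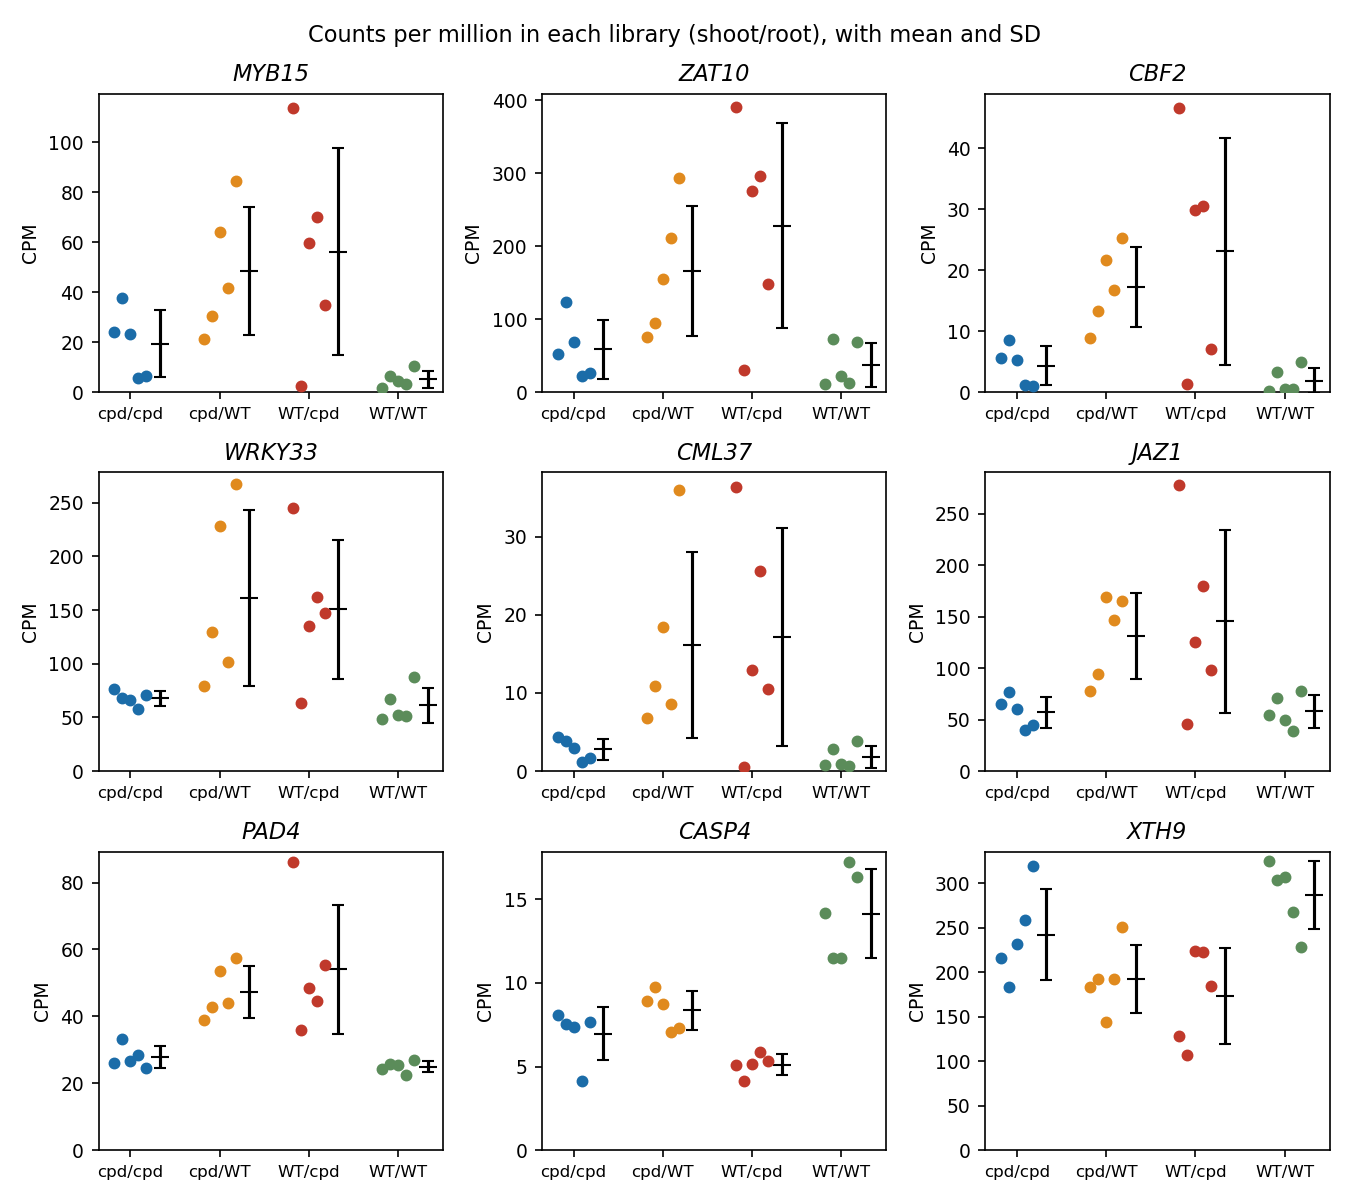
CPM of 9 genes in each library, in the order cpd/cpd, cpd/WT, WT/cpd and WT/WT (shoot/root), with points for the 5 replicates and bars for the mean and SD. The means of MYB15, ZAT10, CBF2, WRKY33, CML37, JAZ1 and PAD4 were higher in both mismatched groups than in both matched ones, with WT/cpd replicate 2 the lowest of its group, while the means of CASP4 and XTH9 were highest in WT/WT.

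Where the mean over all libraries reached 3 on the log2 CPM scale, the genes with the largest differences included a nuclease, a calcium-binding protein and a carrier. AT4G29780, annotated as a nuclease, had 45.4, 62.4, 27.8, 8.02 and 10.4 CPM in cpd/cpd and 44.2, 87.2, 184, 96.4 and 248 CPM in cpd/WT, and 352, 7.58, 118, 217 and 45.2 CPM in WT/cpd against 7.37, 18.9, 10.8, 5.94 and 33.3 CPM in WT/WT. All 5 WT/WT libraries lay below all 5 cpd/WT libraries, and WT/cpd spanned both. Its interaction was -5.38 ± 1.12 (adjusted p = 0.0079). AT5G39670, an EF-hand calcium-binding family gene that overlaps genes on the other strand, was at -4.78 ± 0.76 (adjusted p = 0.0039), and DIC2 (AT4G24570), a mitochondrial dicarboxylate carrier counted in the ERF, CBF and ZAT list, at -4.66 ± 1.09 (adjusted p = 0.014). The Nudix hydrolase gene NUDT4 (AT1G18300) was at -4.30 ± 0.88 (adjusted p = 0.0075) and the defence suppressor gene BAP1 (AT3G61190) at -4.21 ± 0.83 (adjusted p = 0.007). WT/cpd replicates 1 and 2 differed widely in these genes, with 57.4 and 3.21 CPM of AT5G39670, 265 and 6.81 CPM of DIC2, 141 and 7.88 CPM of NUDT4 and 55.4 and 3.26 CPM of BAP1.

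WRKY transcription factors, which act in immunity through the W-box, were lower in matched grafts for 9 of 15 tested members (60%, against 5.43% of all genes tested), with 0 higher and a median interaction of -1.03. The 6 others had values between -1.03 and -0.30. WRKY33 (AT2G38470), a regulator of camalexin and of defence against fungi, had 76.5, 67.7, 66.6, 57.6 and 71.1 CPM in cpd/cpd and 79.4, 130, 228, 102 and 267 CPM in cpd/WT, and 245, 63.7, 135, 162 and 147 CPM in WT/cpd against 48.4, 67, 52.7, 51.7 and 87.4 CPM in WT/WT. Apart from WT/cpd replicate 2 and cpd/WT replicate 1, the mismatched libraries lay above every matched one. The interaction was -2.54 ± 0.45 (adjusted p = 0.0046), with a 0.421-fold root effect under cpd shoots and a 2.45-fold effect under WT shoots. WRKY33 overlaps 2 genes on the other strand. WRKY46 (AT2G46400) was at -5.60 ± 0.94 (adjusted p = 0.0039) and WRKY40 (AT1G80840), which overlaps a gene on the other strand, at -4.60 ± 0.94 (adjusted p = 0.0077). WT/cpd replicates 1 and 2 had 59.3 and 1.84 CPM of WRKY46 and 95.5 and 3.13 CPM of WRKY40.

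Touch and calcium genes were lower for 6 of 12 members (50%, against 5.43% of all genes tested), with 0 higher and a median of -2.46. CML37 (AT5G42380), a calmodulin-like protein, had 4.37, 3.8, 2.9, 1.13 and 1.73 CPM in cpd/cpd and 6.8, 10.9, 18.4, 8.59 and 35.9 CPM in cpd/WT, and 36.4, 0.557, 13, 25.6 and 10.5 CPM in WT/cpd against 0.852, 2.79, 0.947, 0.709 and 3.82 CPM in WT/WT. Every cpd/WT library exceeded every matched library, and the lowest library of all was WT/cpd replicate 2. Its interaction was -5.78 ± 1.02 (adjusted p = 0.0046). TCH2 (AT5G37770), the calmodulin-like protein found as touch-induced, had 38.1, 55.5, 43.3, 19.6 and 27.8 CPM in cpd/cpd and 42.1, 84.4, 109, 97.5 and 112 CPM in cpd/WT, and 122, 24.9, 95.2, 110 and 66.1 CPM in WT/cpd against 29.3, 45.2, 28, 27.7 and 46.3 CPM in WT/WT. In each mismatched group 4 of 5 libraries lay above every matched library. The interaction of TCH2 was -2.51 ± 0.50 (adjusted p = 0.0071), and it overlaps a gene on the other strand. TCH4 (AT5G57560), a xyloglucan endotransglucosylase/hydrolase known to be induced by both touch and brassinosteroid, was at -2.62 ± 0.62 (adjusted p = 0.015). CBP60G (AT5G26920), a calmodulin-binding activator of salicylate synthesis, was at -2.41 ± 0.44 (adjusted p = 0.0048).

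**Figure D3:**
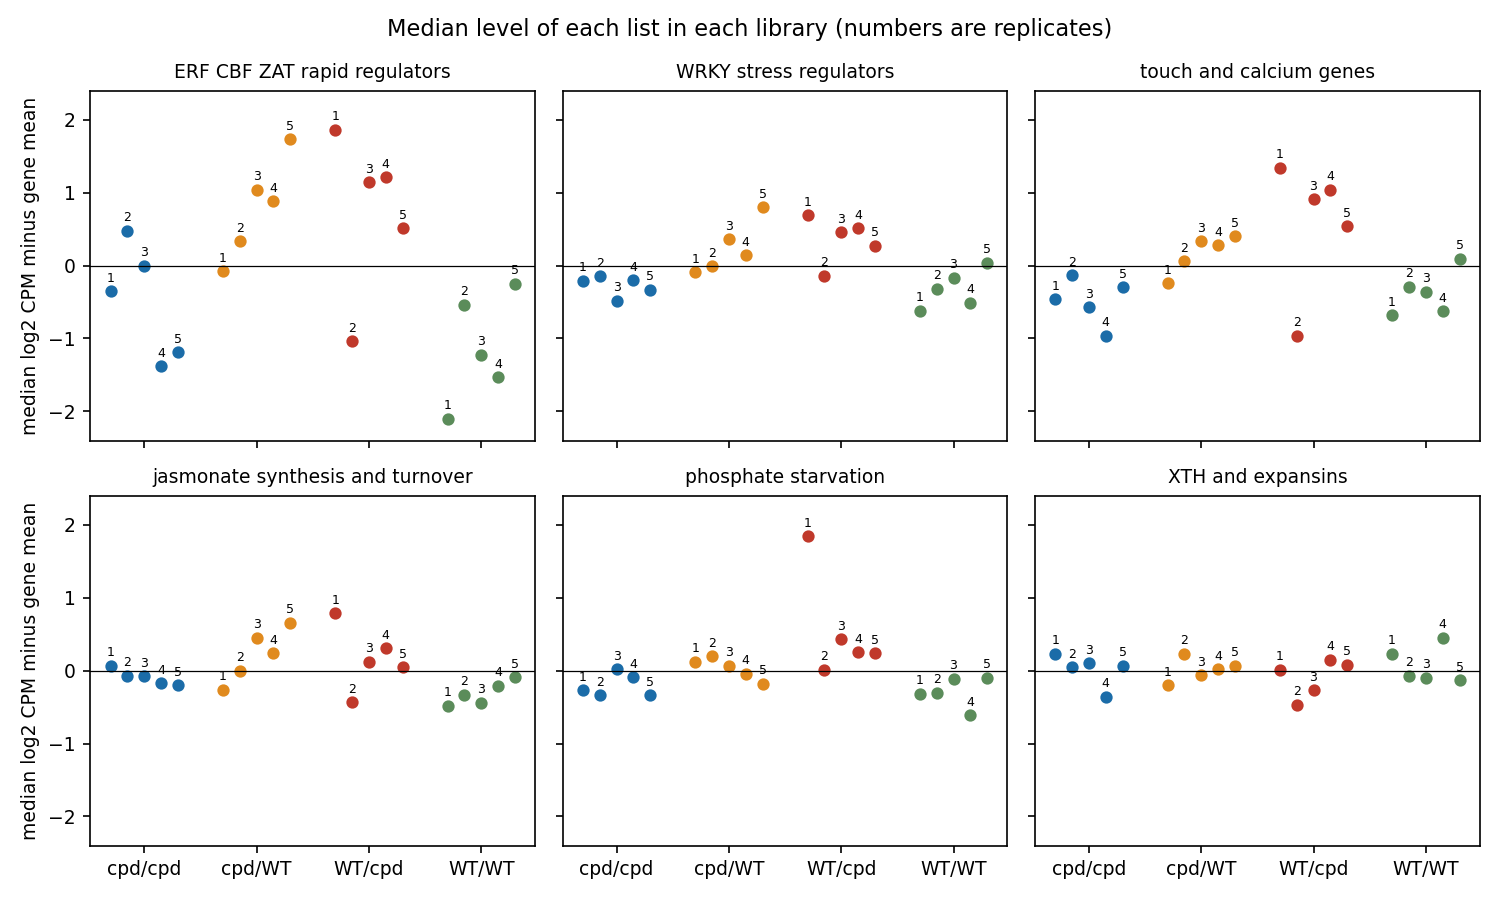
Median level of 6 gene lists in each library, as log2 CPM minus the mean of the gene over all libraries, with the replicate number above each point. For the ERF, CBF and ZAT list, WT/cpd replicate 2 lay at -1.04 while the other WT/cpd libraries lay above 0, and the phosphate list reached 1.84 in WT/cpd replicate 1.

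Libraries of one group differed widely in these genes. For the ERF, CBF and ZAT list the median lay between -1.38 and 0.48 in cpd/cpd and between -0.08 and 1.73 in cpd/WT, and between -1.04 and 1.86 in WT/cpd against -2.10 and -0.25 in WT/WT. The range inside WT/cpd was larger than the distance between any group medians. Members of the list share these libraries and are not separate replicates of the difference. In WT/cpd, replicate 1 was the highest and replicate 2 the lowest. Whether handling of single pools had a part in this was not tested. Against 5.43% of all genes tested, 2 of 12 heat shock genes were lower (16.7%, DREB2A and HSFB2A), as were 1 of 14 hypoxia genes (7.14%, the ethylene receptor gene ETR2) and 1 of 12 wounding and graft union genes (8.33%, GH9B3, an endoglucanase). The heat shock list as a whole did not lie lower: its median interaction was 0.35, with 8 of 12 genes above 0 and 4 below. At an unadjusted p under 0.05, 2 heat shock genes were higher and 2 lower, against 4972 of all 20862 genes tested either way. The wounding count was 2 without cpd/WT replicate 2 or 5 or WT/WT replicate 2.

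Jasmonate genes were lower where they were called. Of 15 tested genes of jasmonate synthesis and turnover 8 were lower (53.3%, against 5.43% of all genes tested) and 0 higher, with a median of -1.15. AOS (AT5G42650), allene oxide synthase, had 28.4, 35.5, 30.8, 24 and 23.5 CPM in cpd/cpd and 28.9, 27.6, 40.6, 49.8 and 57.8 CPM in cpd/WT, and 94.4, 24.1, 49.2, 53.6 and 46.1 CPM in WT/cpd against 20.3, 25.8, 21.3, 16.2 and 22.1 CPM in WT/WT. WT/cpd replicate 1 stood highest, replicate 2 lay among the matched libraries, and cpd/WT overlapped cpd/cpd. The interaction was -1.86 ± 0.38 (adjusted p = 0.0071), and -1.58 without WT/cpd replicate 1. AOC3 (AT3G25780), the next enzyme of the pathway, was at -1.64 ± 0.41 (adjusted p = 0.021). LOX3 (AT1G17420), a lipoxygenase, was at -5.18 ± 1.27 (adjusted p = 0.018) and at -3.91 without WT/cpd replicate 1, a library at 7.16 CPM where the 4 others of WT/cpd reached at most 1.06 CPM. LOX3 was a low gene (mean log2 CPM -0.12) and lost its call under 1 of the 30 alternatives (highest adjusted p 0.06). Without cpd/WT replicate 3, 5 of the 15 jasmonate genes were called.

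The JAZ repressors, which jasmonate both induces and degrades, were lower for 3 of 12 members (25%, against 5.43% of all genes tested), and all 12 had a negative interaction. JAZ1 (AT1G19180) had 65.1, 76.5, 60.6, 40 and 44.5 CPM in cpd/cpd and 78.2, 94.8, 169, 147 and 165 CPM in cpd/WT, and 278, 45.9, 125, 180 and 98.1 CPM in WT/cpd against 54.3, 71.2, 49.2, 39 and 77.9 CPM in WT/WT. All 5 cpd/WT libraries lay above all 10 matched libraries, as did 4 of 5 WT/cpd libraries. Its interaction was -2.51 ± 0.50 (adjusted p = 0.007). JAZ7 was at -2.82 ± 0.81 (adjusted p = 0.037) and JAZ5 at -2.42 ± 0.72 (adjusted p = 0.044). Those calls were often lost: JAZ7 lost its call in 9 and JAZ5 in 13 of the 20 fits that left out 1 library, and JAZ7 was at -2.04 without cpd/WT replicate 3. The count of 3 was 1 without any of 8 libraries (cpd/cpd replicates 1 and 5, cpd/WT replicate 3, WT/cpd replicates 1 and 3, and WT/WT replicates 1, 3 and 4). It was 5 or 6 without cpd/WT replicate 1 or 2 or WT/cpd replicate 2 or 5.

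Ethylene genes were lower for 5 of 14 members (35.7%, against 5.43% of all genes tested), with 0 higher. ACS6 (AT4G11280), a stress-induced ACC synthase that makes the ethylene precursor, had 69.5, 99.6, 67, 16.5 and 25 CPM in cpd/cpd and 60.2, 91.8, 150, 146 and 247 CPM in cpd/WT, and 270, 40.2, 194, 197 and 111 CPM in WT/cpd against 27.2, 48.7, 30.1, 24.6 and 46.6 CPM in WT/WT. Replicates 3, 4 and 5 of cpd/WT and all of WT/cpd except replicate 2 lay above every matched library. Its interaction was -3.52 ± 0.70 (adjusted p = 0.0071). ACO4 (AT1G05010, EFE in the reference), the ACC oxidase of the last step, had 57.9, 67.8, 52.4, 67.5 and 58.8 CPM in cpd/cpd and 67.9, 59.9, 74.2, 74.6 and 70.8 CPM in cpd/WT, and 123, 77.8, 98.8, 87.6 and 103 CPM in WT/cpd against 51, 65.1, 54.7, 50.1 and 56.2 CPM in WT/WT. Every WT/cpd library exceeded every WT/WT library, while cpd/WT overlapped cpd/cpd. The interaction of ACO4 was -1.01 ± 0.15 (adjusted p = 0.0034), with a 0.876-fold root effect under cpd shoots and a 1.77-fold effect under WT shoots.

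Salicylate and pipecolate immunity genes were lower for 6 of 12 members (50%, against 5.43% of all genes tested), with 0 higher and a median of -1.28. PAD4 (AT3G52430), a lipase-like partner of EDS1 in immunity, was the only gene described here whose matched and mismatched libraries did not overlap. It had 26.1, 33.2, 26.8, 28.3 and 24.5 CPM in cpd/cpd and 39, 42.7, 53.5, 43.9 and 57.4 CPM in cpd/WT, and 86.1, 35.8, 48.4, 44.6 and 55.3 CPM in WT/cpd against 24.2, 25.8, 25.4, 22.5 and 27 CPM in WT/WT. All 10 matched libraries lay between 22.5 and 33.2 CPM and all 10 mismatched ones between 35.8 and 86.1 CPM. The interaction was -1.87 ± 0.24 (adjusted p = 0.0026), with a root effect of 0.587-fold under cpd shoots and 2.15-fold under WT shoots, and it lay between -2.01 and -1.67 in the fits that left out 1 library.

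PBS3 (AT5G13320), an enzyme of salicylate synthesis, had 0.785, 1, 0.78, 0.303 and 0.692 CPM in cpd/cpd and 2.88, 1.28, 0.407, 1.1 and 0.745 CPM in cpd/WT, and 24.8, 0.3, 6.25, 11.2 and 18.1 CPM in WT/cpd against 0.596, 0.458, 0, 0.665 and 1.63 CPM in WT/WT. Here the difference rested on 4 WT/cpd libraries, and cpd/WT overlapped both matched groups. Its interaction was -5.11 ± 1.13 (adjusted p = 0.011). FMO1 (AT1G19250), which makes N-hydroxypipecolate, was also highest in WT/cpd, with 0.159 ± 0.058 CPM in cpd/cpd against 0.734 ± 0.576 in cpd/WT, and 9.75 ± 8.41 in WT/cpd against 1.05 ± 0.771 in WT/WT (SD, n = 5 each). The interaction of FMO1 was -5.41 ± 1.26 (adjusted p = 0.014), and -4.80 without cpd/WT replicate 4. PBS3 and FMO1 were low genes, with a mean log2 CPM of 0.39 and -0.14. Each lost its call under 1 of the 30 alternatives (highest adjusted p 0.094 and 0.12).

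Camalexin is an indole phytoalexin, and 5 of its 8 listed genes were lower (62.5%, against 5.43% of all genes tested), with 0 higher. CYP71A12 (AT2G30750), a cytochrome P450 of indole defence metabolism, had 5.02, 9.51, 4.87, 5.89 and 8.95 CPM in cpd/cpd and 37.7, 17.5, 9.53, 19 and 5.67 CPM in cpd/WT, and 177, 18.9, 20.3, 64.6 and 145 CPM in WT/cpd against 2.47, 12.8, 0.947, 18.9 and 14.3 CPM in WT/WT. WT/cpd replicates 1, 4 and 5 stood above all other libraries, and the remaining groups overlapped. The interaction was -4.51 ± 1.0 (adjusted p = 0.011). CYP71A12 has a close tandem copy, CYP71A13, so its counts are uncertain. GSTF6 (AT1G02930), a glutathione transferase of the same pathway, was at -2.16 ± 0.52 (adjusted p = 0.016). The count of 5 was 3 without cpd/cpd replicate 3, cpd/WT replicate 3, WT/cpd replicate 1 or WT/WT replicate 1.

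Flavonol genes were lower for 6 of 14 members (42.9%, against 5.43% of all genes tested), and all 14 had a negative interaction. That count was 1 without the 4 least typical libraries. MYB12 (AT2G47460), the activator of flavonol synthesis in roots, had 24.5, 38.2, 29.4, 30.2 and 14.8 CPM in cpd/cpd and 62.9, 56, 50.9, 39.1 and 25.9 CPM in cpd/WT, and 48.2, 50.4, 36.4, 20.4 and 24.3 CPM in WT/cpd against 21.7, 19.7, 22.7, 16 and 21.3 CPM in WT/WT. WT/WT was low and even, and it overlapped both groups with cpd roots. Its interaction was -1.60 ± 0.38 (adjusted p = 0.015). F3H (AT3G51240), flavanone 3-hydroxylase, was at -0.92 ± 0.21 (adjusted p = 0.013) and overlaps a gene on the other strand. PAL1 (AT2G37040, -0.86 ± 0.23, adjusted p = 0.024) and PAL2 (AT3G53260, -0.73 ± 0.19, adjusted p = 0.022), which open the phenylpropanoid pathway, were lower as well. MYB41 (AT4G28110), an activator of suberin synthesis, had 1.66, 2.17, 1.97, 0.997 and 2.38 CPM in cpd/cpd and 3.89, 3.83, 3.39, 3.88 and 4.43 CPM in cpd/WT, and 6.34, 3.43, 5.7, 4.17 and 5.03 CPM in WT/cpd against 3.96, 4.91, 1.81, 3.95 and 2.25 CPM in WT/WT. For MYB41 every cpd/WT library exceeded every cpd/cpd library, and the interaction was -1.61 ± 0.35 (adjusted p = 0.0096).

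**Figure D4:**
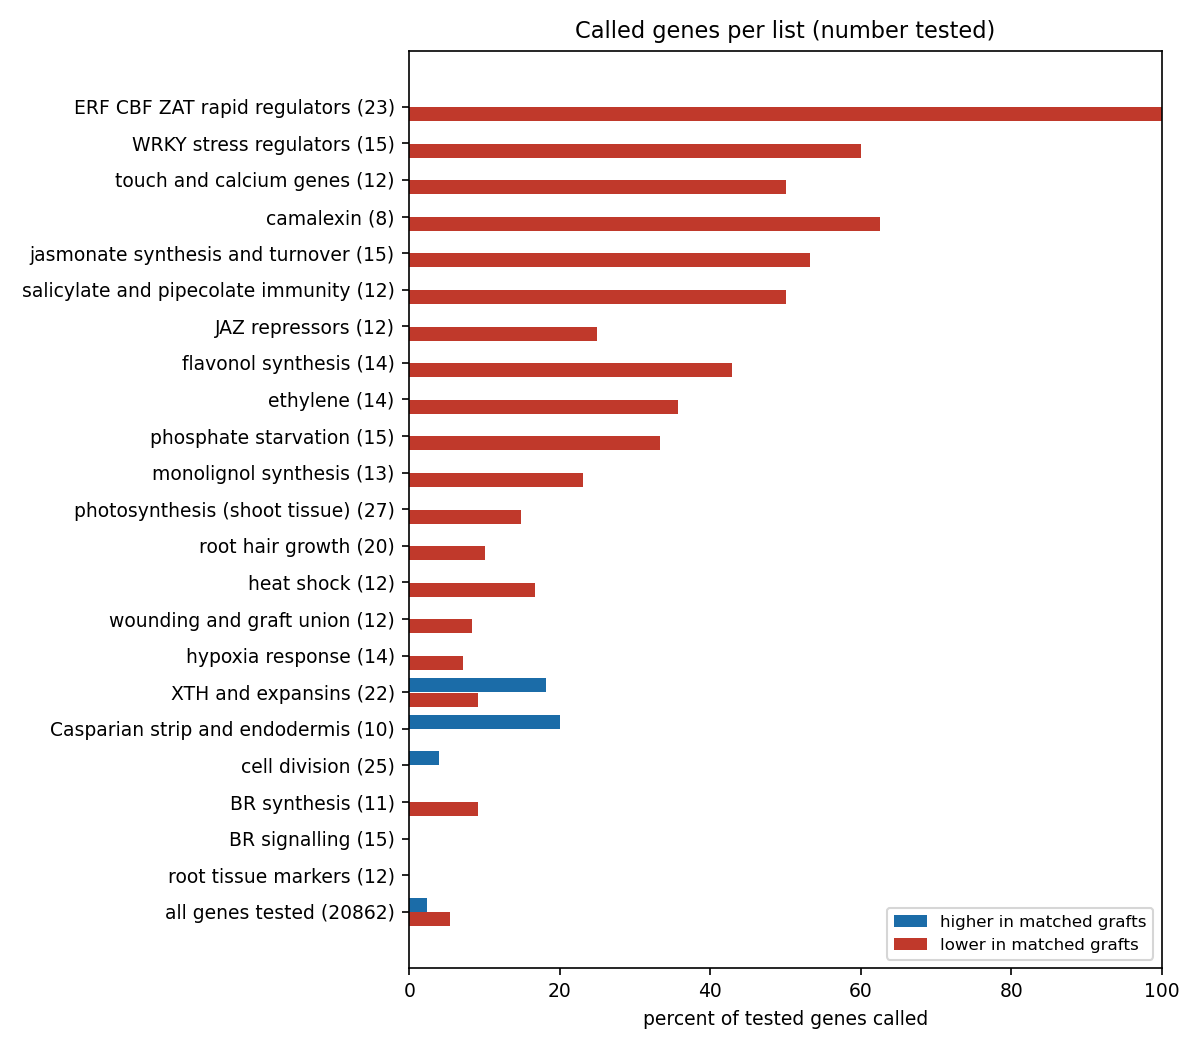
Percent of the tested genes of each list that were called higher (blue) or lower (red) in matched grafts, with the number tested in brackets and all genes in the bottom row. The ERF, CBF and ZAT list reached 100% lower against 5.43% of all genes, and blue bars appear for the XTH and expansin, Casparian strip and cell division lists.

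Phosphate starvation genes were lower for 5 of 15 members (33.3%, against 5.43% of all genes tested), and all 15 had a negative interaction, with a median of -1.53. PHT1-4 (AT2G38940), a high-affinity phosphate transporter, had 20.1, 19.2, 28.7, 19.7 and 21.1 CPM in cpd/cpd and 21.5, 27.7, 23.6, 25.1 and 19.2 CPM in cpd/WT, and 102, 28.8, 52, 51.5 and 44.1 CPM in WT/cpd against 15.8, 23.2, 22, 16.6 and 18.3 CPM in WT/WT. The 5 WT/cpd libraries lay above all 15 others, and the remaining groups overlapped. Its interaction was -1.64 ± 0.33 (adjusted p = 0.0071), from a root effect of 0.93-fold under cpd shoots and 2.89-fold under WT shoots.

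PPSPASE1 (AT1G73010, PS2 in the reference), a phosphatase induced when phosphate is short, had 9.3, 8.13, 11.3, 4.42 and 8.99 CPM in cpd/cpd and 18.3, 9.51, 22.4, 10.5 and 10.7 CPM in cpd/WT, and 89.4, 6.34, 22.9, 30.2 and 19 CPM in WT/cpd against 5.71, 7.37, 6.71, 4.39 and 6.75 CPM in WT/WT. WT/cpd replicate 1 was by far the highest and replicate 2 lay within WT/WT. Its interaction was -3.18 ± 0.67 (adjusted p = 0.0085), and -2.44 without WT/cpd replicate 1. PAP17 (AT3G17790), a purple acid phosphatase that overlaps a gene on the other strand, was at -1.53 ± 0.39 (adjusted p = 0.021). Of 13 nitrate genes 1 was lower (7.69%, against 5.43% of all genes tested) and 0 higher. It was the nitrate transporter and sensor gene NRT1.1 (AT1G12110), which had 290, 295, 206, 162 and 191 CPM in cpd/cpd and 273, 275, 308, 332 and 283 CPM in cpd/WT, and 403, 299, 293, 292 and 293 CPM in WT/cpd against 191, 235, 146, 260 and 150 CPM in WT/WT. All 5 WT/cpd libraries exceeded all 5 WT/WT libraries, and the interaction was -1.05 ± 0.24 (adjusted p = 0.013).

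Among 20 root hair growth genes 2 were lower (10%, against 5.43% of all genes tested) and 0 higher. XTH26 (AT4G28850), a xyloglucan endotransglucosylase/hydrolase of root hairs, had 1.92, 0.792, 1.75, 0.737 and 1.9 CPM in cpd/cpd and 2.36, 4.21, 3.79, 3.73 and 1.74 CPM in cpd/WT, and 3.5, 1.03, 1.86, 2.09 and 2.1 CPM in WT/cpd against 0, 0.333, 1.03, 0.399 and 0.188 CPM in WT/WT. Most WT/WT libraries were lowest, with the highest WT/WT level at 1.03 CPM, and the interaction was -3.51 ± 0.69 (adjusted p = 0.0068). It ranged from -4.30 (without WT/WT replicate 3) to -3.20 over the fits that left out 1 library. PRP1 (AT1G54970), a proline-rich wall protein of root hairs, was at -1.91 ± 0.52 (adjusted p = 0.03). PRP1 lost its call without cpd/WT replicate 3, WT/cpd replicate 1 or WT/WT replicate 1, with an adjusted p of up to 0.061. The count of 2 then fell to 1, and it was 4 without WT/cpd replicate 2 and 6 without WT/WT replicate 4.

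Genes that were higher in matched grafts differed less and included wall and endodermal genes. Among 10 Casparian strip and endodermis genes 2 were higher (20%, against 2.3% of all genes tested) and 0 lower, and the list median was 0.64. CASP4 (AT5G06200), a membrane protein that scaffolds the Casparian strip of the endodermis, had 8.07, 7.55, 7.36, 4.16 and 7.65 CPM in cpd/cpd and 8.92, 9.74, 8.76, 7.06 and 7.28 CPM in cpd/WT, and 5.07, 4.16, 5.14, 5.87 and 5.3 CPM in WT/cpd against 14.2, 11.5, 11.5, 17.2 and 16.3 CPM in WT/WT. WT/WT stood above every other library, WT/cpd was lowest apart from cpd/cpd replicate 4, and the 2 groups with cpd shoots overlapped. The root effect on CASP4 was 0.835-fold under cpd shoots and 0.362-fold under WT shoots, and its interaction was 1.2 ± 0.23 (adjusted p = 0.0056). UCC1 (AT2G32300), a uclacyanin of the strip, was at 0.75 ± 0.23 (adjusted p = 0.047) and lost its call in 16 of the 20 fits that left out 1 library. The list held 1 call in those fits, 6 calls without cpd/cpd replicate 4 and 4 without WT/cpd replicate 4.

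Wall-loosening XTH and expansin genes were higher for 4 of 22 tested members, against 2.3% of all genes tested. Lower were 2 of the 22 (9.09%, against 5.43% of all genes tested), and the list median was 0.32. XTH9 (AT4G03210) had 216, 184, 232, 259 and 320 CPM in cpd/cpd and 183, 192, 144, 193 and 251 CPM in cpd/WT, and 128, 107, 224, 223 and 185 CPM in WT/cpd against 325, 304, 307, 268 and 229 CPM in WT/WT. WT/WT was high, and cpd/cpd overlapped all groups. Its interaction was 1.05 ± 0.27 (adjusted p = 0.023), with an adjusted p of up to 0.054 without cpd/cpd replicate 5, WT/cpd replicate 1 or WT/WT replicate 1. XTH4 (AT2G06850) had 136, 114, 135, 151 and 178 CPM in cpd/cpd and 101, 114, 120, 121 and 151 CPM in cpd/WT, and 90.2, 79.1, 117, 129 and 117 CPM in WT/cpd against 156, 169, 162, 172 and 136 CPM in WT/WT. WT/cpd lay below WT/WT without overlap, while cpd/cpd and cpd/WT overlapped, and the interaction of XTH4 was 0.81 ± 0.19 (adjusted p = 0.014). The expansin gene EXPA1 (AT1G69530) was at 1.17 ± 0.33 (adjusted p = 0.034) and XTH20 (AT5G48070) at 1.01 ± 0.29 (adjusted p = 0.035). Those 2 calls were lost in 9 and 13 of the 20 fits that left out 1 library. The count of 4 was 1 or 2 without cpd/cpd replicate 1 or 5, cpd/WT replicate 1 or 3, WT/cpd replicate 1 or 3, or WT/WT replicate 1 or 4. The 2 lower members were TCH4 and XTH23 (named after its values were seen), and 1 of them was lost in 16 of the 20 fits.

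AT4G34950, annotated as a major facilitator superfamily transporter, had 17.3, 21.7, 19.9, 69.2 and 58.9 CPM in cpd/cpd and 22.9, 15.8, 14.5, 24 and 23 CPM in cpd/WT, and 8.05, 5.91, 10.7, 12.2 and 10.4 CPM in WT/cpd against 24.6, 23.4, 27.8, 15.1 and 30.5 CPM in WT/WT. In cpd/cpd, replicates 4 and 5 stood above all other libraries, and WT/cpd lay below every other library. Its interaction was 2.24 ± 0.48 (adjusted p = 0.0096), and 1.89 without cpd/cpd replicate 4. AT5G14920, a gibberellin-regulated family gene, was at 1.43 ± 0.34 (adjusted p = 0.015). CYCB2-1 (AT2G17620), a mitotic cyclin, had 6.44, 5.05, 6.17, 7.63 and 7.39 CPM in cpd/cpd and 4.13, 3.55, 3.3, 4 and 4.26 CPM in cpd/WT, and 4.7, 5.01, 4.73, 6.14 and 5.1 CPM in WT/cpd against 6, 4.95, 5.77, 6.43 and 4.94 CPM in WT/WT. Every cpd/cpd library exceeded every cpd/WT library, while WT/cpd and WT/WT overlapped. The interaction of CYCB2-1 was 0.89 ± 0.18 (adjusted p = 0.007). It was the only called one of 25 cell division genes (4% higher, against 2.3% of all genes tested). All 25 had a positive interaction, with a median of 0.34.

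**Figure D5:**
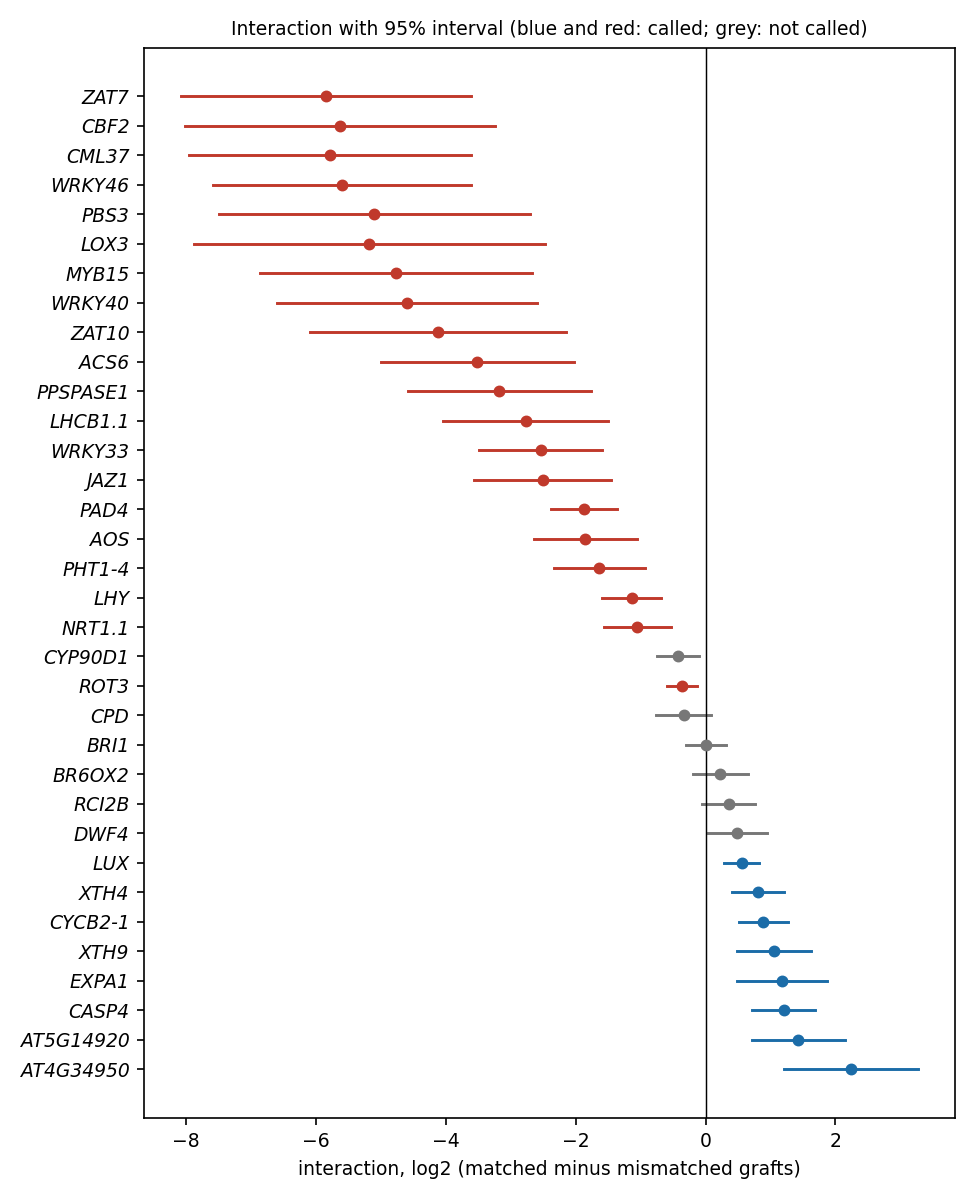
Interaction of 34 genes on the log2 scale (matched minus mismatched grafts) with its 95% interval, in red where called lower, in blue where called higher and in grey where not called. CPD, DWF4, BR6OX2, CYP90D1, BRI1 and RCI2B lie in grey between -0.42 and 0.49, against -5.84 for ZAT7 and 2.24 for AT4G34950.

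CPD, DWF4, BR6OX2 and CYP90D1 differed by root genotype under either shoot, and none of the 4 was called for the interaction. Under cpd shoots against WT shoots, CPD was at 0.711-fold on cpd roots and 0.9-fold on WT roots. On the same roots DWF4 was at 1.08-fold and 0.766-fold, and BR6OX2 at 1.09-fold and 0.93-fold. CYP90D1 differed by shoot too. On WT roots it was 1.56-fold higher under cpd shoots (26.7 to 38.9 CPM) than under WT shoots (19.5 to 22.7 CPM), and on cpd roots 1.17-fold. Of 11 synthesis genes 1 was lower (9.09%, against 5.43% of all genes tested). Of the 11, 3 had an unadjusted p under 0.05, and DESeq2 called 1 and limma with sample weights 4. Over all 20862 genes tested, those counts were 4972, 2370 and 4129. The synthesis count was 2 without WT/cpd replicate 5. In addition, edgeR called 0 of 15 signalling genes (1 with an unadjusted p under 0.05, 0 by DESeq2 and 1 by limma with sample weights). It called 0 of 6 inactivation genes (2, 1 and 0 by the same counts). With 7.73% of all genes tested called either way, lists this short cannot set 0 calls apart from that share. CPD had an interaction of -0.34 ± 0.20 (95% interval -0.76 to 0.08, adjusted p = 0.3), with a root effect of 0.0692-fold under cpd shoots and 0.0876-fold under WT shoots. CPD overlaps a gene on the other strand.

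DWF4 (AT3G50660), a rate-limiting P450 that brassinosteroid represses, had 44.8, 48.5, 43.1, 42.4 and 57.8 CPM in cpd/cpd and 13.7, 23.7, 17.1, 19.6 and 22.4 CPM in cpd/WT, and 42.7, 34.9, 41.4, 57.3 and 43.1 CPM in WT/cpd against 27.4, 20.2, 21, 30.2 and 27.2 CPM in WT/WT. cpd roots exceeded WT roots without overlap under both shoots, 2.45-fold under cpd shoots and 1.74-fold under WT shoots. Its interaction was 0.49 ± 0.21 (95% interval 0.04 to 0.95, adjusted p = 0.16). BR6OX2 (AT3G30180), which makes brassinolide, was at 0.22 ± 0.20 (-0.20 to 0.65, adjusted p = 0.52) and CYP90D1 (AT3G13730), another P450 of the pathway, at -0.42 ± 0.15 (-0.75 to -0.10, adjusted p = 0.098). CYP90D1 was called under 2 of the 30 alternatives, limma with sample weights (adjusted p = 0.044) and the fit without WT/cpd replicate 5 (adjusted p = 0.036). The called member was ROT3 (AT4G36380), a further P450, with 51.7 ± 3.56 CPM in cpd/cpd against 50.6 ± 5.35 in cpd/WT, and 50 ± 4.11 in WT/cpd against 37.9 ± 1.85 in WT/WT (SD, n = 5 each). Its interaction was -0.37 ± 0.11 (adjusted p = 0.039), lost in 11 of the 20 fits that left out 1 library, and it overlaps a gene on the other strand.

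The receptor gene BRI1 (AT4G39400) had an interaction of 0.01 ± 0.15 (-0.30 to 0.32, adjusted p = 0.98), an interval that leaves room for a difference of up to about 0.3 either way. RCI2B (AT3G05890), a small membrane protein that was low in cpd roots, had 97.3, 96.6, 110, 64.4 and 102 CPM in cpd/cpd and 1840, 1860, 1560, 1900 and 1810 CPM in cpd/WT, and 101, 75.1, 70.3, 98 and 71 CPM in WT/cpd against 1920, 2320, 2270, 1710 and 1950 CPM in WT/WT. WT roots exceeded cpd roots more than 10 times in every library under either shoot. The interaction of RCI2B was 0.36 ± 0.19 (-0.05 to 0.76, adjusted p = 0.26), and limma with sample weights called it (0.52, adjusted p = 0.024).

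Clock, abscisic acid and photosynthesis genes were called in part. LHY (AT1G01060), a morning factor of the circadian clock, had 45.4, 45.6, 38, 59.7 and 33.3 CPM in cpd/cpd and 69.7, 54.4, 68.8, 63 and 56.4 CPM in cpd/WT, and 80.3, 82.9, 77.4, 51 and 57.2 CPM in WT/cpd against 47, 50.3, 44.1, 35.6 and 45.9 CPM in WT/WT. The mismatched groups lay higher with some overlap, and the interaction was -1.14 ± 0.21 (adjusted p = 0.0054). Its partner CCA1 (AT2G46830) was at -0.96 ± 0.28 (adjusted p = 0.042), a call lost in 14 of the 20 fits that left out 1 library. LUX (AT3G46640, PCL1 in the reference), an evening factor, was higher at 0.56 ± 0.13 (adjusted p = 0.013), with 58.3 ± 7 CPM in cpd/cpd against 52.5 ± 5.53 in cpd/WT, and 52.5 ± 5.88 in WT/cpd against 69.7 ± 4.79 in WT/WT (SD, n = 5 each). In all, 1 of 16 clock genes was higher (6.25%, against 2.3% of all genes tested) and 2 were lower (12.5%, against 5.43%), with 1 lower in 13 of those fits and 2 higher without cpd/WT replicate 2. LUX overlaps a gene on the other strand. The hour of harvest is not in the labels, and its part was not tested.

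Of 24 abscisic acid and dehydration genes 2 were higher and 2 lower (8.33% each way, against 2.3% and 5.43% of all genes tested), counts that ranged from 0 to 2 and from 1 to 5 when 1 library was left out. The count lower was 5 without WT/cpd replicate 2, 4 without WT/WT replicate 2 or 5, and 1 without cpd/cpd replicate 3 or 5, cpd/WT replicate 1 or 3, WT/cpd replicate 1 or 3, or WT/WT replicate 1, 3 or 4. ABI1 (AT4G26080), a phosphatase that restrains abscisic acid signalling, had 98.5, 102, 88.2, 63.8 and 85.1 CPM in cpd/cpd and 122, 98.3, 104, 106 and 97.5 CPM in cpd/WT, and 185, 110, 130, 122 and 133 CPM in WT/cpd against 76.5, 100, 75.1, 72 and 81 CPM in WT/WT. WT/cpd stood above every other library apart from overlap with cpd/WT replicate 1, and the interaction was -1.02 ± 0.19 (adjusted p = 0.0054). DREB2A (AT5G05410), a dehydration and heat response factor counted in the heat shock list, was at -1.15 ± 0.25 (adjusted p = 0.009). ABI1 and DREB2A each overlap a gene on the other strand.

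All 27 photosynthesis genes had a negative interaction and 4 were lower (14.8%, against 5.43% of all genes tested). That count was 9 without cpd/cpd replicate 4, and 11 were called by limma with sample weights. LHCB1.1 (AT1G29920, CAB2 in the reference), a chlorophyll-binding protein, was at -2.77 ± 0.60 (adjusted p = 0.0094), and its near-identical copies make its counts uncertain. The summed photosynthesis list ranged from 2630 to 5090 CPM in cpd/cpd and from 2630 to 4590 CPM in cpd/WT, and from 2120 to 4320 CPM in WT/cpd against 1510 to 2710 CPM in WT/WT, and the part of shoot-type RNA in the results was not tested. Of 14 leaf identity genes 5 were tested and 0 were called by edgeR (1 with an unadjusted p under 0.05, 0 by DESeq2 and 1 by limma with sample weights). In whole roots, a change in the share of a cell type and a change per cell cannot be told apart. Of 12 root tissue markers edgeR called 0 (1 with an unadjusted p under 0.05, 0 by DESeq2 and 1 by limma with sample weights). Lists of 5 and 12 genes cannot set 0 calls apart from the 7.73% of all genes tested that edgeR called.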

How the data were processed

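Whole-root RNA from 20 pools was sequenced after RNeasy Plant Mini extraction and NEBNext Ultra II Directional library preparation, per the labels' protocols. Values are raw read counts per gene as the authors deposited them. STAR and TAIR10 are named in the submitters' processing notes; no source used here gives the counting tool or its strand setting.

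From the counts, edgeR 4.0.16 (R 4.3.3) with TMM scaling and robust quasi-likelihood fitting gave 1 mean per group and 16 residual degrees of freedom. Genes were filtered by filterByExpr, p-values were Benjamini-Hochberg adjusted over all 20862 genes tested, and called genes had an adjusted value under 0.05. Levels are TMM-scaled CPM, which do not compare genes of different length. limma 3.58.1, DESeq2 1.42.0, other scalings and filters, a replicate block, and leaving out libraries were the alternatives, and the fit was tested on simulated data. Promoters are the 250 bases before annotated starts in RefSeq TAIR10.1, against 150 as the alternative.

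Named genes were the 12 called genes with the largest difference each way at a mean log2 CPM of at least 3, up to 4 called members of each list by adjusted p, and CPD, DWF4, BR6OX2, CYP90D1, BRI1 and RCI2B; the text names part of these. The comparison, gene lists and named genes were chosen with earlier results of these data known.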

Additional observations from a re-analysis of the deposited data

Results flagged for a closer look

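The root genotype effect differed between shoots for 1613 genes, by the test of the difference itself. Each value below is the interaction on the log2 scale, matched minus mismatched grafts, of a gene described above that passed that test. Among rapid regulators it was -6.89 for RRTF1, -5.84 for ZAT7, -5.63 for CBF2, -4.77 for MYB15, -4.66 for DIC2, -4.12 for ZAT10, -2.76 for ZAT11, -2.03 for ERF4 and -2.01 for CZF1. Among WRKY, calcium and touch genes it was -5.78 for CML37, -5.60 for WRKY46, -4.60 for WRKY40, -2.62 for TCH4, -2.54 for WRKY33, -2.51 for TCH2 and -2.41 for CBP60G. Other genes of large difference were at -5.38 for AT4G29780, -4.78 for AT5G39670, -4.30 for NUDT4 and -4.21 for BAP1. Jasmonate and ethylene genes were at -5.18 for LOX3, -2.82 for JAZ7, -2.51 for JAZ1, -2.42 for JAZ5, -1.86 for AOS, -1.64 for AOC3, -3.52 for ACS6 and -1.01 for ACO4. Immunity and phenylpropanoid genes were at -5.41 for FMO1, -5.11 for PBS3, -4.51 for CYP71A12, -2.16 for GSTF6, -1.87 for PAD4, -1.61 for MYB41, -1.60 for MYB12, -0.92 for F3H, -0.86 for PAL1 and -0.73 for PAL2. Nutrient and root hair genes were at -3.51 for XTH26, -3.18 for PPSPASE1, -1.91 for PRP1, -1.64 for PHT1-4, -1.53 for PAP17 and -1.05 for NRT1.1. Further lower values were -2.77 for LHCB1.1, -1.15 for DREB2A, -1.14 for LHY, -1.02 for ABI1, -0.96 for CCA1 and -0.37 for ROT3. The higher values were 2.24 for AT4G34950, 1.43 for AT5G14920, 1.2 for CASP4, 1.17 for EXPA1, 1.05 for XTH9, 1.01 for XTH20, 0.89 for CYCB2-1, 0.81 for XTH4, 0.75 for UCC1 and 0.56 for LUX.

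Single libraries stood apart from the other 4 of their group in 20 of 264 groups of 5 examined, where chance flags about 1 in 20. Highest in their group were BR6OX2 with 62.1 CPM in WT/cpd replicate 4 against 38.6 CPM in the nearest other library, CZF1 with 420 CPM in cpd/WT replicate 5 against 270 CPM in the nearest other library, RRTF1 with 3.57 CPM in WT/WT replicate 5 against 0.791 CPM in the nearest other library, JAZ7 with 14 CPM in cpd/WT replicate 3 against 4.3 CPM in the nearest other library and LOX3 with 7.16 CPM in WT/cpd replicate 1 against 1.06 CPM in the nearest other library. Also highest were FMO1 with 1.76 CPM in cpd/WT replicate 4 against 0.496 CPM in the nearest other library, PAL1 with 993 CPM in WT/cpd replicate 1 against 708 CPM in the nearest other library, PHT1-4 with 28.7 CPM in cpd/cpd replicate 3 against 21.1 CPM in the nearest other library, PPSPASE1 with 89.4 CPM in WT/cpd replicate 1 against 30.2 CPM in the nearest other library and NRT1.1 with 403 CPM in WT/cpd replicate 1 against 299 CPM in the nearest other library. The same held for CYCB2-1 with 6.14 CPM in WT/cpd replicate 4 against 5.1 CPM in the nearest other library, LUX with 70.7 CPM in cpd/cpd replicate 5 against 55.5 CPM in the nearest other library and DREB2A with 165 CPM in cpd/WT replicate 5 against 105 CPM in the nearest other library. Lowest in their group were CPD with 2.68 CPM in WT/cpd replicate 4 against 4.14 CPM in the nearest other library, BR6OX2 with 34.6 CPM in cpd/cpd replicate 4 against 46 CPM in the nearest other library, RCI2B with 1560 CPM in cpd/WT replicate 3 against 1810 CPM in the nearest other library and CASP4 with 4.16 CPM in cpd/cpd replicate 4 against 7.36 CPM in the nearest other library. Likewise lowest were PAL1 with 732 CPM in cpd/WT replicate 5 against 933 CPM in the nearest other library, UCC1 with 17.9 CPM in cpd/cpd replicate 4 against 29.5 CPM in the nearest other library and CCA1 with 25.9 CPM in WT/WT replicate 4 against 43.3 CPM in the nearest other library. WT/cpd replicate 1 accounted for 4 of the 20.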

How the results depend on the processing

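No direction turned: of the 1613 called genes, 0 changed sign under any alternative. Counts moved more. limma with sample weights called 4129 genes, 2091 higher and 2038 lower, and a fit without the 4 least typical libraries called 2968, 1348 of them higher. Of the calls, 29.8% were higher in the report, 50.6% with sample weights and 45.4% without those 4 libraries, against 20% to 44.3% when 1 library was left out. DESeq2's Wald test called 771 higher genes, and a test against a 1.2-fold difference called 599 genes, 39 higher and 560 lower, by its construction. Leaving out 1 library gave 1050 to 2407 calls, 218 to 1066 of them higher and 818 to 1341 lower. The total moved by over 1.5 times without WT/WT replicate 1 (1050), WT/cpd replicate 1 (1060) and cpd/cpd replicate 5 (1067). The cause was not tested. Same-numbered replicates did not deviate together more often than others (correlation over 0.1 in 5 of 30 pairs, 32 of 120 differently numbered ones). Single same-numbered pairs ranged from -0.514 to 0.433, so pairing within some of the groups is not excluded. The main fit did not pair the samples, and a replicate block gave 1415 calls. DESeq2's size factors gave 1627 calls, no filter on low counts 1377 and a stricter filter 1613. Of 60 called genes described above, 51 were called in every fit that left out 1 library and 42 under every alternative. Most of these 60 were picked for large differences or small adjusted p, so they need not stand for all 1613. Leaving out 1 library kept between 64.2% and 96.6% of the 1613 calls. In simulated counts, 17 of 67 genes with a 1.5-fold interaction, 44 of 67 with a 2-fold one and 66 of 66 with a 4-fold one were called. Smaller differences were thus often missed there. The simulation changed far fewer genes than the 1613 called here and drew each library independently, so these shares need not hold for the data. Under 150 bases in place of 250, TTGAC was in 40% of promoters of genes called lower against 31.4% of all.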

Other observations

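Of all 20862 genes tested, edgeR called 7.73%, DESeq2 2370 and limma with sample weights 4129, and 4972 had an unadjusted p under 0.05. A list of 17 genes or fewer cannot set 0 calls apart from that 7.73%. Of 17 iron deficiency genes 0 were called by edgeR, with 6 higher and 1 lower at an unadjusted p under 0.05. DESeq2 called 1 of them and limma with sample weights 1, and the median interaction of the iron list was 0.60. Of 14 sugar transporter genes 0 were called (1 at an unadjusted p under 0.05, 0 by DESeq2 and 0 by limma), and the same held for 13 carbon status genes (3, 1 and 1). Of 26 starch genes 1 was lower (3.85%, against 5.43% of all genes tested), the beta-amylase gene BAM1 at -0.87 (adjusted p = 0.024), and this count became 3 when cpd/cpd replicate 4 or WT/cpd replicate 5 was dropped, 6 when cpd/WT replicate 2 was, and 2 when WT/cpd replicate 4 or WT/WT replicate 5 was.

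Among 17 gibberellin genes 1 was higher (5.88%, against 2.3% of all genes tested) and 2 were lower (11.8%, against 5.43%). The count higher was 0 without cpd/cpd replicate 5, and the count lower was 1 without cpd/cpd replicate 1 or 5, WT/cpd replicate 1, or WT/WT replicate 1 or 4. GAI, a DELLA repressor of gibberellin response, was at 0.50 (adjusted p = 0.022). GA3OX2, which makes active gibberellin, was at -1.96 (adjusted p = 0.029), and GA2OX6, which inactivates it, at -1.55 (adjusted p = 0.0028). All 12 phloem genes were uncalled by edgeR, against 7.73% of all genes tested that were called. Of the 12, 0 had an unadjusted p under 0.05 (4972 of all 20862), 0 were called by DESeq2 and 1 by limma.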
